A study of Drosophila melanogaster with 10 samples.

Results

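The genes described here are the UDP-glycosyltransferase (Ugt) genes of Drosophila melanogaster, measured in dissected Malpighian tubules and in whole flies. Members were taken by name: a probe set counted where the platform annotation gives it to 1 gene whose current symbol begins with Ugt and a digit, and where a gene had several such probe sets, the one with the highest mean signal over the 10 arrays was kept. This gave 33 genes, out of 10844 genes on the array with a probe set of their own. Of the 35 genes of this name in the RefSeq gene table, the other 2, Ugt35D1 and Ugt50B3, have no such probe set and were not analysed here.

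There were 5 arrays of tubule and 5 of whole fly, all from adults of the Oregon R strain, 7 days old, with the sexes mixed and without any treatment. The arrays are numbered 2 to 6. For each number, tubules and intact flies were drawn from the same culture, so each comparison was made inside the 5 pairs. Each array holds RNA pooled from many animals, and whole flies contain their own tubules. The unit is the MAS 5.0 signal of an Affymetrix Drosophila genome array, a brightness in arbitrary units scaled to the same trimmed mean on every array. The signals of different genes come from different probes, so ratios were formed only for 1 gene between arrays. Where signals of different genes are set side by side, summed or held against a fixed limit, this is a rough guide only.

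Ugt enzymes join a sugar, taken from a UDP-sugar, to small fat-soluble molecules such as plant toxins, drugs, hormones, pigments and odorants. The product dissolves in water and can be carried out of the cell by transporters. In insects the sugar is mostly glucose, in mammals mostly glucuronic acid. Insect tubules clear such compounds from the haemolymph, and the fat body and midgut are the other tissues best known for conjugating them. Apart from a few members, the substrates of the fly enzymes are little known.

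A gene was called where the adjusted p of the paired comparison was under 0.05 (limma, with the Benjamini-Hochberg adjustment made across the 13966 probe sets that were tested). Of the 33 Ugt genes, 15 were called higher in tubule and 6 lower. These are 45.5% and 18.2% of the family. Over the whole array 16.8% of probe sets were called higher and 36.3% lower, or 16.5% and 40.3% with 1 probe set per gene. Calls in either direction came to 21 members, or 63.6%, against 53.1% of all probe sets. The median log2 ratio of tubule to fly was 0.42 over the family, against -0.32 over all probe sets tested. The split rested in part on how the arrays were scaled: after quantile normalization it was 19 higher and 3 lower (all probe sets, 29.7% higher and 24.7% lower, median 0.18), and with the ribosomal protein gene RpL32 held constant 11 higher and 9 lower (10.4% and 46.2%, median -0.66). As these are pieces of tissue, more cells that use a gene and more RNA in each such cell cannot be told apart.

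**Figure D1:**
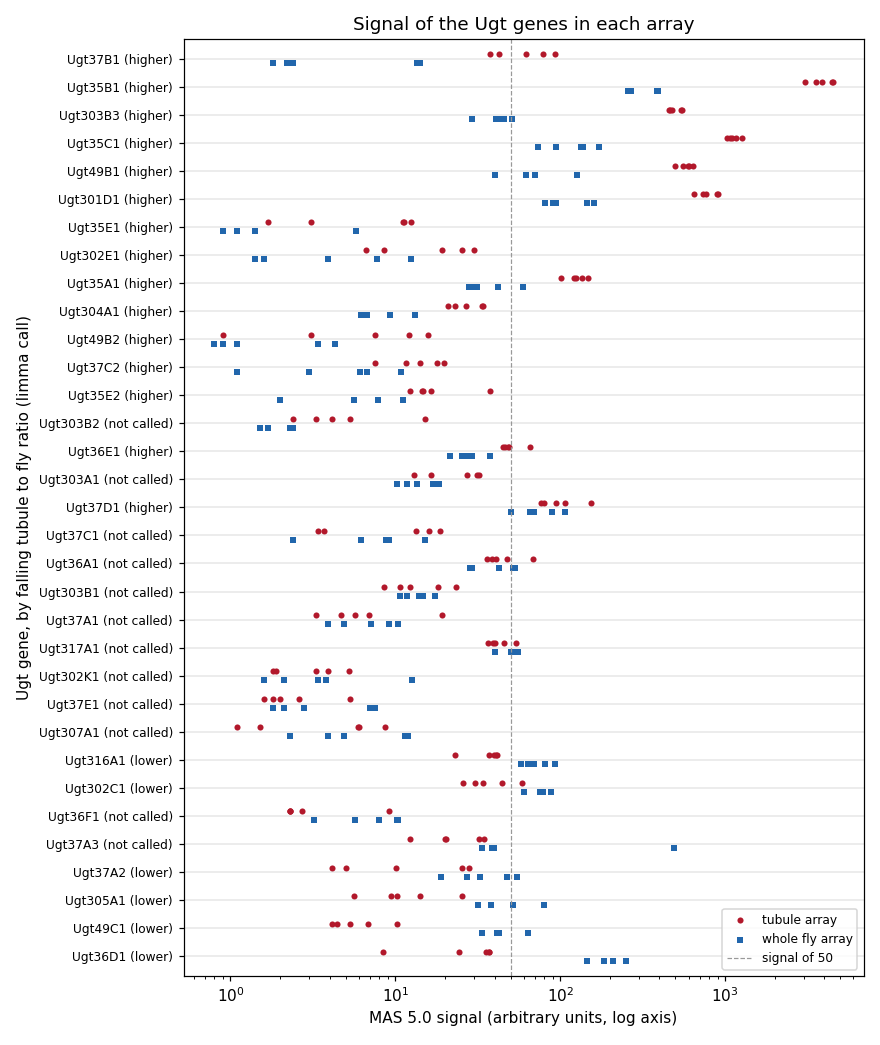
Signal of each of the 33 Ugt genes in the 5 tubule arrays (red circles) and the 5 whole fly arrays (blue squares), on a log axis, ordered by the fitted ratio, with the limma call in brackets and a dashed line at a signal of 50. For Ugt35B1, Ugt303B3, Ugt35C1, Ugt49B1 and Ugt301D1 every tubule point lies far to the right of every fly point, and 18 genes have mean signals under 50 in both groups.

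Ugt35B1, Ugt303B3, Ugt35C1, Ugt49B1 and Ugt301D1 were called higher at a mean ratio of at least 2 and with a tubule mean at least 100 above the fly mean. These 5 genes are 15.2% of the family, and 5.66% of all probe sets met the same rule. Together with Ugt37B1, Ugt35E1 and Ugt302E1, which had far lower signals, 8 members (24.2%) were called higher at a mean ratio of at least 5, against 3.32% of all probe sets. The ratios of Ugt35B1, Ugt303B3, Ugt35C1, Ugt49B1 and Ugt301D1 lay between 7.39 and 12.6, and these 5 were called higher under each of the other settings fitted, apart from 1 that takes another probe set for Ugt35B1.

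Ugt35B1 was first described as a gene of the antenna. Its signals in tubule arrays 2 to 6 were 3880.3, 4441.8, 4488.9, 3065.8 and 3568.4, and those in the fly arrays 268.9, 384.6, 391.5, 258.5 and 259.2. The groups are wide apart, and the lowest tubule array stands at several times the highest fly array. The mean ratio within pairs was 12.6 ± 1.38 (SD, n = 5 pairs, limma, adjusted p = 6.2e-08), with a range of only 11.5 to 14.4. A second probe set for this gene did not show the difference. Its signals were 3.1 to 14.8 in tubule and 1.9 to 11.2 in fly, near the bottom of the scale in both groups (log2 ratio 0.77 with an SE of 0.70, adjusted p = 0.39), so the result for Ugt35B1 is that of 1 of its 2 probe sets. As for markers of the antenna and other chemosensory organs, 11 were measured. Of these 0 were higher in tubule and 6 were lower (over the whole array, 16.5% and 40.3% of genes). Their summed signal was 85.5 to 114 in the tubule arrays and 1358 to 2330.3 in the fly arrays, but Orco, the shared odorant co-receptor gene, was near the bottom of the scale in both groups, at 2.9 to 7.0 in tubule and 4.4 to 9.3 in whole fly.

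Ugt35C1, the former Ugt86Dd, is a gene in which natural variants have been tied to the resistance of fly larvae to nicotine. It had 1028.6, 1063.9, 1105.1, 1268.8 and 1162.6 in tubule and 171.3, 133.8, 137.7, 93.7 and 73.7 in whole flies. The tubule arrays differed little among themselves (coefficient of variation 8.37%) and the fly arrays more (31.6%). The ratio was 10.3 ± 4.17 (SD, n = 5 pairs, limma, adjusted p = 5.9e-06), and its spread, from 6.00 in pair 2 to 15.8 in pair 6, came mainly from the fly side.

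Ugt303B3 had 479.4, 548.6, 537.4, 457.6 and 463.6 in tubule and 45.9, 40.8, 51.1, 29.3 and 42.7 in whole flies, where 4 of the 5 arrays were below 50. The ratio was 12.2 ± 2.29 (SD, n = 5 pairs, limma, adjusted p = 4.3e-07). For Ugt49B1 the tubule signals were 602.1, 496.9, 638.4, 596.2 and 558.9 and the fly signals 125.6, 70.4, 70.7, 62.1 and 40.5. Fly array 2 was the highest and fly array 6 the lowest, and the ratio accordingly ran from 4.79 in pair 2 to 13.8 in pair 6, with a mean of 8.86 ± 3.35 (SD, n = 5 pairs, limma, adjusted p = 8.5e-06).

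Ugt301D1 had 901.4, 892.0, 766.2, 733.3 and 649.7 in tubule and 144.8, 90.6, 81.1, 161.0 and 94.4 in whole flies. Again the groups did not overlap, and the ratio was 7.39 ± 2.23 (SD, n = 5 pairs, limma, adjusted p = 4.8e-06). Across the 5 genes the coefficient of variation was 8.37 to 15.5% in tubule and 19.3 to 42.5% in whole fly. By the median of these 5 genes fly array 2 stood highest, at 0.40 log2 above the mean of the fly arrays. The medians of arrays 3 to 6 were 0.03, 0.24, -0.25 and -0.24. Gene by gene, only Ugt35C1 and Ugt49B1 were highest in fly array 2. Ugt35B1 and Ugt303B3 were highest in array 4 and Ugt301D1 in array 5.

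**Figure D2:**
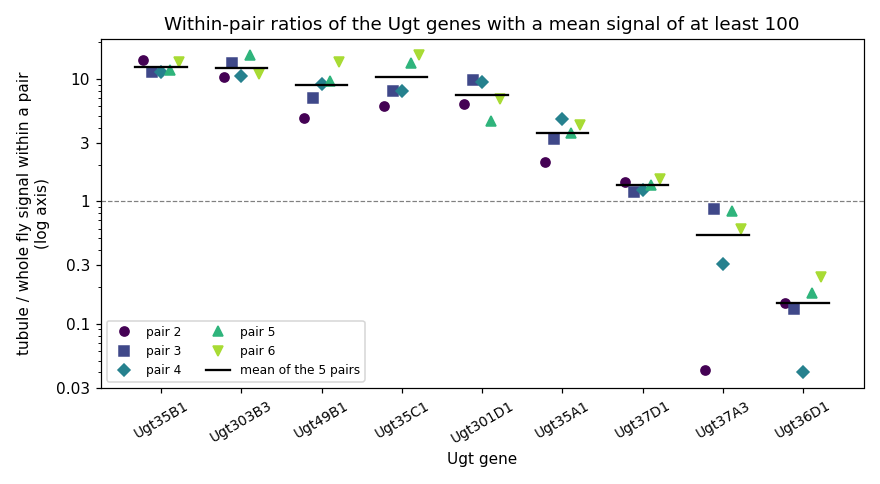
Ratio of tubule to whole fly signal within each of the 5 pairs (symbols) and the mean of the 5 ratios (black line), on a log axis, for the 9 Ugt genes with a mean signal of at least 100 in tubule or in whole fly. Ugt35B1 lies between 11.5 and 14.4 in every pair, and the ratio of Ugt37A3 is 0.0418 in pair 2 but 0.865 in pair 3.

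Further genes were higher in tubule by less, or at lower signals. Ugt35A1 stands next to Ugt35B1 in the genome and has been described as widely expressed in the fly. Its signals were 125.4, 135.6, 147.6, 101.8 and 121.2 in tubule against 59.5, 41.8, 31.2, 27.9 and 28.6 in whole flies. These groups do not overlap either, and the ratio was 3.59 ± 1.01 (SD, n = 5 pairs, limma, adjusted p = 1.4e-04). Ugt35A1 too was called higher under every other setting fitted.

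Ugt37D1 showed only a small difference. It had 153.5, 106.5, 80.2, 94.2 and 76.6 in tubule and 107.2, 89.1, 65.4, 68.9 and 50.4 in whole flies. The groups overlap, but array 2 was the highest and array 6 the lowest in both, and tubule was above fly in 5 of 5 pairs, by 1.20 to 1.52 times (mean 1.35 ± 0.137, SD, limma, adjusted p = 0.028). The call was lost without the block for the pair (adjusted p = 0.15), with RpL32 held constant (log2 ratio 0.09, adjusted p = 0.67) and without pair 2, 5 or 6 (adjusted p = 0.070, 0.068 and 0.082). It was also lost without pairs 3 and 4 (adjusted p = 0.072) and with pairs 4 and 6 alone (adjusted p = 0.29).

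Ugt37B1 had the highest fitted ratio of the family, but over fly signals near background. Its signals were 37.6 to 92.9 in tubule and 1.8 to 14.2 in whole flies, so the ratios within pairs ran from 2.98 to 51.6 (log2 ratio 3.72 with an SE of 0.62, limma, adjusted p = 0.0013). With signals under 50 set to 50, the log2 ratio was 0.37 and the gene was not called. Ugt36E1, which is known from olfactory neurons, had 45.1 to 65.9 in tubule and 21.6 to 37.4 in whole flies, a ratio of 1.86 ± 0.434 (SD, n = 5 pairs, limma, adjusted p = 0.010). Its call was lost with signals under 50 set to 50 (log2 ratio 0.08, adjusted p = 0.60), when RpL32 was held constant (0.058), without pairs 3 and 4 (0.092) and with pairs 4 and 6 alone (0.20).

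The other 6 genes called higher had means under 50 in both groups: Ugt35E1, Ugt35E2, Ugt302E1, Ugt304A1, Ugt37C2 and Ugt49B2. Their tubule means were 7.88 to 27.7 and their fly means 2.02 to 8.32, with mean ratios of 3.27 to 5.81 and adjusted p of 0.0028 to 0.025 (limma). At such signals the size of a ratio is uncertain. Every signal of these 6 genes was under 50, so with signals under 50 set to 50 their arrays become equal. That setting could call 0 of the 6 and does not test them. Without 1 of the 5 pairs at a time, the call of Ugt49B2 was lost without pair 2, 5 or 6, that of Ugt35E2 without pair 3, 5 or 6, that of Ugt302E1 without pair 3 (adjusted p = 0.051) and that of Ugt35E1 without pair 6 (adjusted p = 0.052), while Ugt304A1 and Ugt37C2 were called each time.

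Ugt36D1 was the clearest of the 6 genes that were lower in tubule. It had 36.8, 24.2, 8.4, 37.2 and 35.3 in tubule and 249.2, 183.9, 208.5, 208.2 and 145.5 in whole flies. Every tubule array lies below 50 and every fly array above 100, and tubule array 4 is the lowest. The ratio was 0.148 ± 0.0738 (SD, n = 5 pairs, limma, adjusted p = 1.6e-04), and it was the only member called lower under every setting fitted. It was also the only member, 3.03% of the family, called lower at a ratio of at most 0.5 and with a mean difference of at least 100, which 7.17% of all probe sets were.

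Ugt49C1 was low in tubule, at 10.2, 5.3, 4.1, 6.8 and 4.4, against 64.2, 41.3, 42.7, 33.6 and 41.3 in whole flies. This is a ratio of 0.138 ± 0.0431 (SD, n = 5 pairs, limma, adjusted p = 9.9e-05). Ugt305A1 had 5.6 to 25.2 in tubule and 31.6 to 79.8 in whole flies (ratio 0.264 ± 0.143, adjusted p = 8.5e-04), and its second probe set was lower as well (log2 ratio -1.89, adjusted p = 0.030). The calls of Ugt49C1, Ugt305A1 and Ugt37A2 were lost with signals under 50 set to 50 (log2 ratios -0.07, -0.15 and -0.03).

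Ugt302C1, with 25.7 to 58.7 in tubule and 60.5 to 87.4 in whole flies (ratio 0.514 ± 0.175), and Ugt316A1, with 23.0 to 41.6 and 57.8 to 93.0 (ratio 0.499 ± 0.0879), were lower by less (SD, n = 5 pairs, limma, adjusted p = 0.0048 and 0.0016). Both calls were lost after quantile normalization (adjusted p = 0.13 and 0.080). That of Ugt302C1 was also lost without pairs 3 and 4 (adjusted p = 0.055), and that of Ugt316A1 with pairs 4 and 6 alone (adjusted p = 0.057). Ugt37A2 was the sixth, at 4.1 to 27.8 in tubule and 18.8 to 55.0 in fly (ratio 0.402 ± 0.287, adjusted p = 0.013, and 0.12 after quantile normalization). It was the only 1 of the 6 whose groups overlapped. In all, the tubule arrays lay wholly above the fly arrays for 10 members (14.1% of all probe sets) and wholly below for 5 (29.6%).

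By signal alone, 7 members (21.2%) were at 50 or more in every tubule array (29.2% of all probe sets), and 7 in every fly array (39.0%). Ugt303B3, Ugt49B1 and Ugt35A1 reached 50 throughout in tubule and not in fly (4.32% of all probe sets). Ugt316A1, Ugt302C1 and Ugt36D1 did so in fly and not in tubule (14.1%).

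Ugt37A3 is a case apart, because 1 array set its fly level. It had 488.2 in fly array 2 and 39.9, 39.8, 38.4 and 33.5 in the other fly arrays, with 20.4, 34.5, 12.3, 32.2 and 20.1 in tubule. It was lower in tubule in 5 of 5 pairs, but was not called (log2 ratio -1.50 with an SE of 0.60, limma, adjusted p = 0.067). It was called with RpL32 held constant (adjusted p = 0.038), and without pair 2 the log2 ratio was -0.72 (adjusted p = 0.11). In the same fly array, Lsp2, which encodes a storage protein of the fat body and haemolymph, stood at 1034.1 against 172.1 to 224.0 in the other 4, and Obp99b at 436.9 against 40.7 to 70.3. Of the other 6 measured genes of fat body and haemolymph, apolpp, Apoltp and Tsf1 were also highest in that array, by less, whereas Obp99a was lowest there (649.1 against 680.9 to 884.6) and Fbp1 (14.2) and Fbp2 (1.7) were low. Over the 8 measured genes of fat body and haemolymph the median was 0.34 log2 above the mean in fly array 2, and the summed signal was 2792 to 5513 in the fly arrays and 535 to 712 in tubule. Some digestive enzyme genes of the midgut were also highest in that array, such as LysX at 1448.8 against 302.4 to 498.4 in the other fly arrays. Over the 24 measured genes of that list the median was -0.06 log2 from the fly mean in array 2. The part of these tissues in the Ugt37A3 signal was not tested.

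The remaining 11 genes gave no call in either direction. They include Ugt36A1, once called Dorothy and known for its promoter, which is active in pericardial cells (36.0 to 68.6 in tubule, 28.4 to 53.4 in whole fly, adjusted p = 0.57), and Ugt317A1 (36.7 to 53.9 and 40.2 to 55.4, adjusted p = 0.31). With Ugt37A3 the 12 uncalled genes had tubule means of 2.66 to 46.3, and in 10 of them both means were under 50. A missed call at such signals does not show equal levels: the 95% confidence interval of the log2 ratio was -0.40 to 0.78 for Ugt36A1 and -1.51 to 1.01 for Ugt302K1.

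The calls divided the families unevenly. All 5 measured genes of the Ugt35 family were called higher in tubule, with fitted log2 ratios of 1.44 to 3.65 (over the whole array, 16.5% of genes were called higher). Of these, Ugt35E1 and Ugt35E2 had signals under 50 in every array, so the setting with signals under 50 set to 50 could not call them. Ugt35B1 was called by 1 of its 2 probe sets. The families are small. Of the 8 Ugt37 genes 3 were called higher and 1 lower, of the 4 Ugt36 genes 1 higher and 1 lower, of the 3 Ugt49 genes 2 higher and 1 lower, and of the 3 Ugt302 genes 1 higher and 1 lower. Of the 4 Ugt303 genes only Ugt303B3 was called. As closely related copies can share sequence, some of these probe sets may not see 1 gene alone.

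Many Ugt genes lie side by side in the genome, and their calls were compared. By the order of protein-coding genes in the RefSeq table (Release 6 assembly), 15 pairs of measured Ugt genes stand next to each other with no other protein-coding gene between them. In 10 of the 15 the 2 neighbours did not share a call, but this includes pairs in which only 1 gene passed the threshold, such as Ugt37A2 and Ugt37A3 with log2 ratios of -1.64 and -1.50. In 3 pairs 1 gene was called higher and the other lower. Among all 33 members 15 were called higher, 6 lower and 12 neither, and with such a mix 2 members taken at random often differ in call. The share among pairs that are not neighbours was not computed, so these counts do not show that neighbours differ more than other members. For comparison of neighbours, the log2 ratios of the 2 genes were subtracted within each pair of arrays. An exact two-sided sign-flip permutation test over 5 pairs cannot go below p = 0.0625, so none of these differences can pass at 0.05. Of the 15 comparisons 8 reached that smallest p, and the lowest p adjusted over the 15 was 0.12.

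Ugt49B1 and Ugt49C1 are neighbours, the first called higher and the second lower in tubule. Their log2 ratios of 3.06 and -2.91 differed by 5.97 ± 0.83 (SD), by 4.92 to 7.02 in the single pairs (5 of 5 in the same direction, exact permutation p = 0.0625). The size rests on tubule signals of Ugt49C1 of 4.1 to 10.2: with signals under 50 set to 50 the log2 ratios were 3.00 and -0.07, and Ugt49C1 was not called. In the Ugt36 group, Ugt36D1 (log2 ratio -2.97) lies beside Ugt36E1 (0.86), a difference of -3.83 ± 1.26 (SD, 5 of 5 pairs, exact permutation p = 0.0625). Ugt302E1 (1.99) and Ugt302C1 (-1.03) differed by 3.02 ± 1.11 (SD, 5 of 5 pairs, exact permutation p = 0.0625), though every signal of Ugt302E1 was under 50. These 3 neighbour pairs were picked for their opposite calls. In each, 1 gene was above fly in 5 of 5 pairs and the other below fly in 5 of 5. The shared direction and the exact permutation p of 0.0625 follow from this and add no support.

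Ugt303B3 heads a row of 3 genes. It was at a log2 ratio of 3.59, while Ugt303B1 beside it was at 0.01, with tubule signals of 8.5 to 23.2 and fly signals of 10.6 to 17.4. The difference of 3.57 ± 0.15 (SD) was the most even of all 15 over the pairs, from 3.33 to 3.71 (5 of 5 in the same direction, exact permutation p = 0.0625). The third gene, Ugt303B2, had 2.4 to 15.2 in tubule and 1.5 to 2.4 in fly (adjusted p = 0.077, limma).

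The longest row, on chromosome arm 3R, holds Ugt35E1, Ugt35E2, Ugt35B1, Ugt35A1, Ugt304A1 and Ugt303A1 in this order. The first 5 of these were called higher and Ugt303A1 was not (log2 ratio 0.70, adjusted p = 0.090, limma). Among the 5, Ugt35E1, Ugt35E2 and Ugt304A1 had signals under 50 in every array. Sizes differed within the row too: Ugt35B1 exceeded Ugt35A1 by 1.86 ± 0.55 in log2 ratio (SD, 5 of 5 pairs, exact permutation p = 0.0625), whereas Ugt35A1 and Ugt304A1 differed by 0.02 ± 0.58 (3 of 5 pairs, exact permutation p = 0.875). Ugt35C1 lies on the same arm but outside this row, with 2 other protein-coding genes between it and Ugt302K1. Ugt302K1, Ugt302E1 and Ugt302C1 stand next to each other, and 1 other protein-coding gene lies between Ugt302C1 and Ugt35E1.

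**Figure D3:**
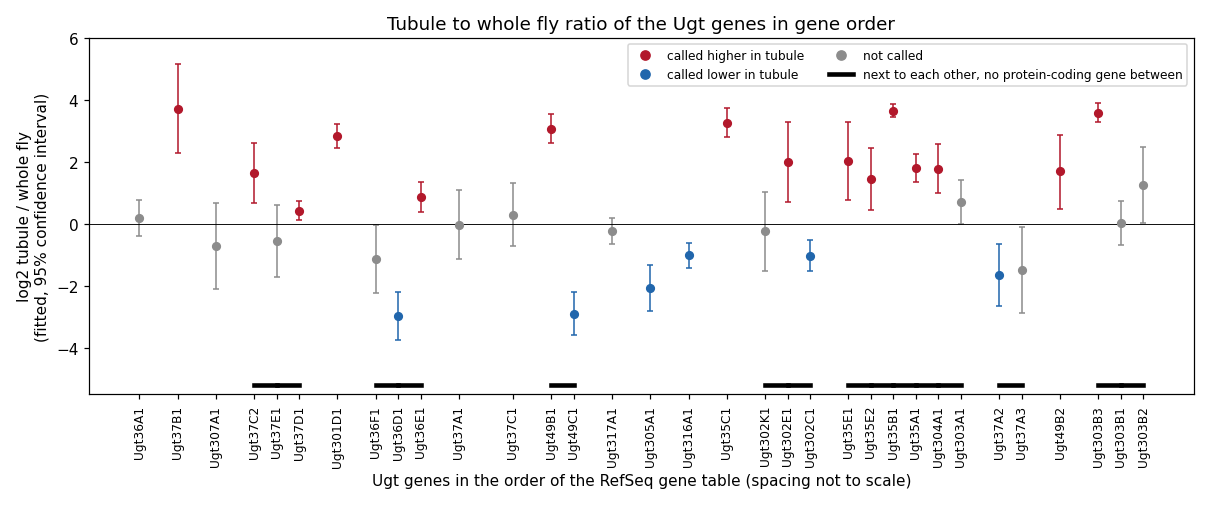
Fitted log2 ratio of tubule to whole fly for each Ugt gene with its 95% confidence interval (limma, n = 5 pairs), in the gene order of the RefSeq table, with black bars under genes that have no protein-coding gene between them. The neighbours Ugt49B1 (3.06) and Ugt49C1 (-2.91) lie on opposite sides of 0, and the row from Ugt35E1 to Ugt303A1 has all its fitted values above 0.

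Ugt enzymes need UDP-sugars, and 9 of 11 listed genes of UDP-sugar supply were measured. The list includes hexokinase and phosphoglucomutase genes, which act before a UDP-sugar is made. The carrier gene frc was listed but matched no probe set of its own here, although the paper reports it as enriched in tubule. Of the 9 measured genes 6 were higher in tubule and 2 lower (over the whole array, 16.5% and 40.3% of genes), with a median log2 ratio of 1.72. Pgm1, a phosphoglucomutase that makes glucose 1-phosphate, had 2088.4, 1837.9, 1920.8, 1641.7 and 1770.5 in tubule and 432.1, 435.5, 411.6, 329.3 and 392.7 in whole flies, a ratio of 4.64 ± 0.296 (SD, n = 5 pairs, limma, adjusted p = 4.3e-07). UGP, which turns glucose 1-phosphate into UDP-glucose, had 837.7, 824.5, 874.3, 723.3 and 826.0 against 269.1, 325.2, 361.8, 224.4 and 271.6 (ratio 2.87 ± 0.364, adjusted p = 9.2e-06). For both genes all tubule arrays lay above all fly arrays.

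The gene sgl encodes the dehydrogenase that makes UDP-glucuronic acid from UDP-glucose. It had 366.5 to 548.6 in tubule and 115.5 to 160.1 in whole flies (ratio 3.37 ± 0.758, SD, n = 5 pairs, limma, adjusted p = 2.9e-05). Hex-C, a hexokinase, was higher too (ratio 11.7 ± 2.85), as were Galt, of galactose conversion (3.36 ± 0.663), and mmy, which makes UDP-N-acetylglucosamine (3.46 ± 0.640, the largest adjusted p of the 3 was 1.7e-05). Hex-A was not called (1.28 ± 0.372, adjusted p = 0.15). The phosphoglucomutase genes Pgm2a (0.519 ± 0.139, adjusted p = 0.0011) and Pgm2b (0.373 ± 0.295, adjusted p = 0.021) were lower.

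**Figure D4:**
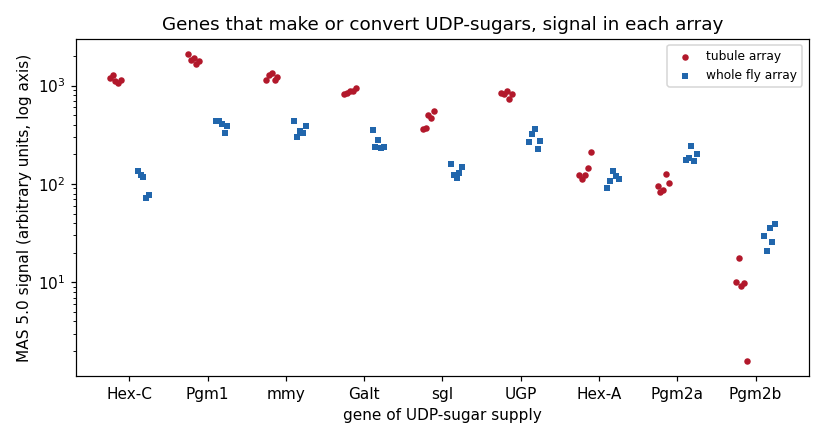
Signal of the 9 measured genes of UDP-sugar supply in the 5 tubule arrays (red circles) and the 5 whole fly arrays (blue squares), on a log axis, ordered by the fitted ratio. From Hex-C to UGP the 6 genes called higher have all tubule arrays above all fly arrays, while Pgm2a and Pgm2b lie lower in tubule.

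Of 10 listed regulators with known or proposed roles in detoxification, 3 were higher and 2 lower in tubule (median log2 ratio 0.07). Over the whole array 16.5% of genes were called higher and 40.3% lower, and the list is too short to be set apart from these shares. How the calls of listed genes depend on the scaling was not examined. The 3 higher ones belong to 1 pathway: cnc, the fly counterpart of Nrf2 (131.3, 122.5, 150.9, 136.7 and 154.6 in tubule against 89.1, 62.5, 90.5, 65.5 and 57.7 in whole flies, ratio 1.97 ± 0.462, SD, n = 5 pairs, adjusted p = 0.0012), its partner maf-S (220.5 to 330.4 against 173.9 to 217.0, log2 ratio 0.52, adjusted p = 0.010) and its inhibitor Keap1 (ratio 2.24 ± 0.820, adjusted p = 0.012, limma). The nuclear receptor gene Hr96 was not called, at 18.8 to 28.5 in tubule and 14.4 to 33.3 in whole flies (adjusted p = 0.78). The lower ones were tgo (ratio 0.540 ± 0.109) and usp (ratio 0.403 ± 0.0915).

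Other conjugating enzymes differed among themselves. Of 6 measured genes for sulfotransferases, for cleavage of glucuronides and for N-acetylation, 1 was higher and 3 lower. Over the whole array the shares were 16.5% and 40.3% of genes. The sulfotransferase gene St3 had 269.2 to 339.6 in tubule and 23.3 to 29.9 in whole flies (ratio 11.2 ± 1.04, SD, n = 5 pairs, limma, adjusted p = 4.6e-07). St1 (ratio 0.327 ± 0.201) and St4 (ratio 0.363 ± 0.164) were lower, as was speck, an arylalkylamine N-acetyltransferase gene (ratio 0.583 ± 0.130, the largest adjusted p of the 3 was 0.0057).

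The tissue label was set beside markers. Of 9 measured genes of tubule principal and stellate cells, 8 were higher in tubule, and tio was near the bottom of the scale in both groups. Among the 8 was the inward rectifier channel gene Irk3, at 2410.8 to 3278.0 in tubule and 29.3 to 41.3 in whole fly. The authors had reported Irk3, Ptx1, Drip, Lkr, ZnT35C (under an older name), a ClC chloride channel gene and V-ATPase genes as enriched in tubule. These reports came from the same arrays, so the markers are no independent check of the label. Of 11 muscle genes all were lower in tubule, and of 5 hindgut genes 2 were higher and 1 lower. Over the whole array 16.5% of genes were called higher and 40.3% lower. Digestive enzyme genes of the midgut, 22 of 24 of them lower in tubule, differed between tubule arrays: their median was 1.30, 1.39, -1.93, 0.56 and -1.21 log2 from the tubule mean in arrays 2 to 6, with a summed signal of 2039.5 to 26741, against 61423 to 78566 in whole flies. For the 5 Ugt genes with a difference of at least 100 the same medians were 0.01, 0.15, 0.12, -0.09 and -0.10, and for all 33 members 0.01, 0.21, -0.21, -0.09 and -0.13. For the 6 genes called lower they were 0.68, -0.08, -0.51, 0.21 and -0.12. Among these Ugt37A2 was highest in tubule arrays 2 and 3 and lowest in 4 and 6, at 25.5, 27.8, 5.0, 10.1 and 4.1, as the digestive enzyme genes were, and their part in its signal was not tested. Male reproductive genes, 14 in number and from the accessory gland and the ejaculatory duct, varied as well: their median was 1.19, -0.66, 1.02, 1.40 and -2.51 in tubule arrays 2 to 6, and the summed signal was 151 to 4718 in tubule. Without pairs 3 and 4, 11 Ugt genes were called higher and 5 lower (over all probe sets, 11.8% and 26.8%). With pairs 4 and 6 alone, chosen after the data were seen, 9 were higher and 5 lower (11.6% and 25.3%), and the genes called in both were Ugt35B1, Ugt303B3, Ugt35C1, Ugt49B1, Ugt301D1, Ugt35A1, Ugt37B1 and Ugt304A1 (higher) and Ugt36D1, Ugt49C1, Ugt305A1 and Ugt37A2 (lower).

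**Figure D5:**
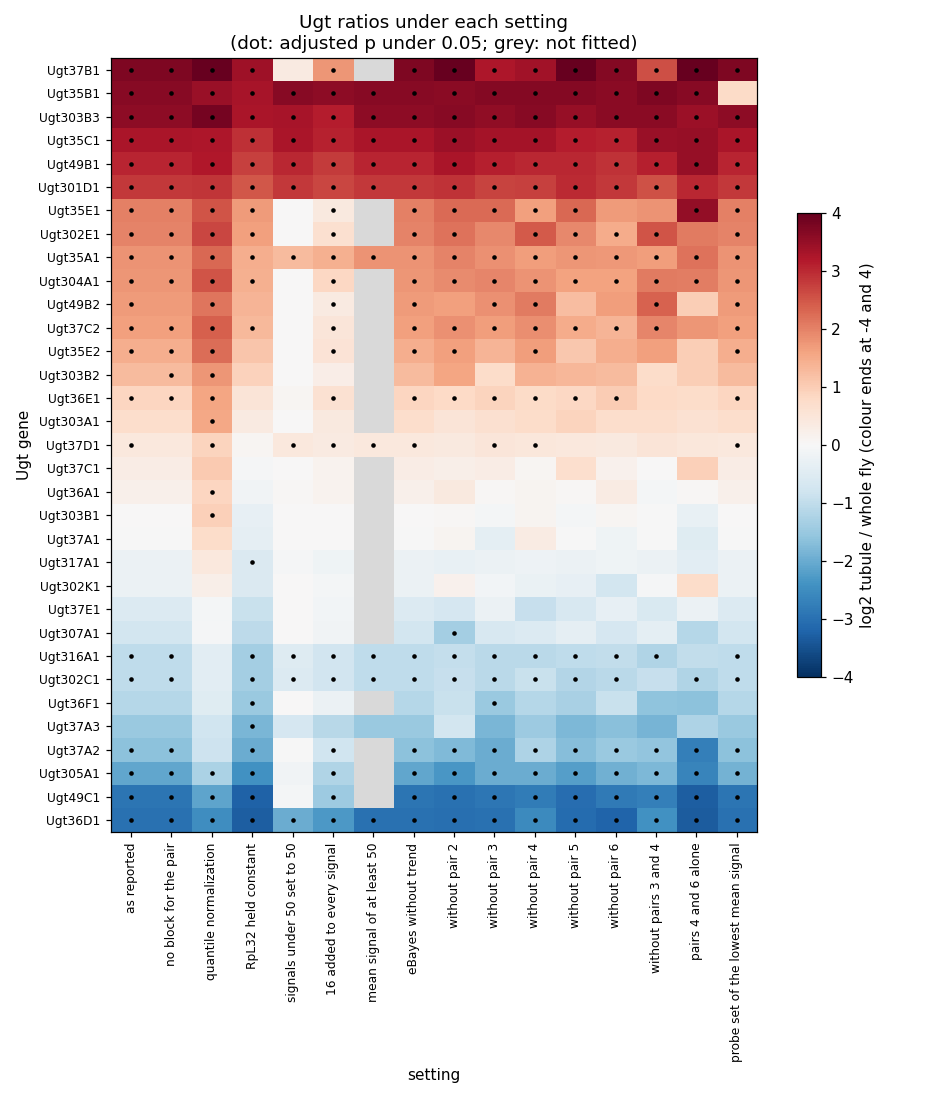
Fitted log2 ratio of tubule to whole fly (colour) of the 33 Ugt genes under the reported setting and 15 others, with a dot where the adjusted p was under 0.05 and grey where a gene was not fitted. The rows of Ugt303B3, Ugt35C1, Ugt49B1, Ugt301D1 and Ugt35A1 carry a dot in every column, Ugt35B1 in all but the last, and 7 genes are still higher with signals under 50 set to 50.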

How the data were processed

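Malpighian tubules and intact flies were hybridised by the authors to Affymetrix Drosophila genome arrays, and the authors dropped an earlier pair for a failed array. The deposited values are signal intensities on a linear scale, from 0.1 to 14002.8. The authors computed them with MAS 5.0, which subtracts background, combines perfect match with mismatch probes and scales every array by 1 factor (here to a trimmed mean of 100.0). No detection calls were used, and the number of arrays limits the precision.

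Of 14010 probe sets, 44 array controls were left out. The annotation gave 12443 of the others to 1 gene, 327 to several and 1196 to none, and 12394 matched the RefSeq gene table, which changed no member's symbol. A linear model of log2 signal with a term for the pair was fitted in limma 3.58.1 (R 4.3.3, lmFit and trended eBayes) after being tested on simulated data. Adjustment followed Benjamini and Hochberg. Ratios are means of the within-pair ratios with their SD.

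The pairing rests on the study's methods. Over 6125 probe sets, the deviations of paired arrays correlated at -0.089 to 0.091. For every tubule array a fly array of another number correlated more, at 0.111 to 0.167. The signals themselves thus show no closer likeness within pairs. All members are accounted for, and those with a mean of at least 100 in a group are given array by array. The members and gene lists were chosen with earlier results of these data known. Alternatives varied the scaling, low signals, block, trend, probe set and pairs used.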

Additional observations from a re-analysis of the deposited data

Results flagged for a closer look

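Within each group of 5 arrays, the highest or lowest array was set against the others by Dixon's test, for 66 groups of arrays. Chance alone would mark about 3.3 of them if signals were normally distributed. The test was run on the signals themselves and not on their logs, so this number is only a rough guide. It marked 10, nearly all on the high side, and no excess over chance is concluded from this count. Ugt37A3 stood at 488.2 in whole fly array 2 against 33.5 to 39.9 in the others. Tubule array 3 was the high one 4 times: Ugt35E2 had 37.7 there (12.2 to 16.4 in the others), Ugt37A1 19.1 (3.3 to 6.9), Ugt303B2 15.2 (2.4 to 5.3) and Ugt36F1 9.1 (2.3 to 2.7). Digestive enzyme genes of the midgut were also highest in that array (median 1.39 log2 above the tubule mean), and their part in these values was not tested. In tubule array 4 Ugt36E1 had 65.9 (45.1 to 49.0) and Ugt37E1 had 5.3 (1.6 to 2.6). Ugt316A1 was low in tubule array 2, at 23.0 (36.8 to 41.6). In the whole fly arrays Ugt302K1 had 12.6 in array 2 (1.6 to 3.8) and Ugt35E1 5.8 in array 3 (0.9 to 1.4). Apart from Ugt37A3, Ugt36E1, Ugt316A1 and Ugt35E2, these are signals under 20 throughout.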

How the results depend on the processing

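Low signals and the scaling both limited the results. With signals under 50 set to 50, 7 Ugt genes were called higher and 3 lower, with a median log2 ratio of 0.00. A gene with every signal under 50 has equal arrays in that setting and cannot be called. Among the 11 genes with a mean of at least 50 over all arrays there were 7 and 3, with a median of 1.79 (fewer genes fitted). The median moved to 0.26 with 16 added to every signal, to 1.06 after quantile normalization, with 3 genes lower, and to 0.09 with RpL32 as the constant, where 9 genes were lower. Pairs 4 and 6 by themselves, chosen after seeing the data, gave 0.74, with 9 genes higher. Without 1 pair at a time, 11 to 15 genes were higher and 6 to 7 lower, with medians of 0.38 to 0.68. Without the replicate block for the pair 14 were higher and 6 lower, with Ugt37D1 and Ugt49B2 lost and Ugt303B2 gained. Signs turned only in uncalled genes: after quantile normalization in Ugt302K1 (0.23), Ugt317A1 (0.42) and Ugt37A1 (0.74), with RpL32 constant in Ugt303B1 (-0.33), Ugt36A1 (-0.15) and Ugt37C1 (-0.05), with 16 added in Ugt37A1 (0.02), without pairs 3 and 4 in Ugt303B1 (-0.01) and Ugt36A1 (-0.07), and with pairs 4 and 6 alone in Ugt302K1 (0.74) and Ugt303B1 (-0.29). Without 1 pair at a time the log2 ratio ranged from -0.74 to 0.17 for Ugt302K1, -0.40 to 0.33 for Ugt37A1 and -0.09 to 0.10 for Ugt303B1. The causes were not tested.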
